A study of Mus musculus with 3 samples.

Results

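The regions described here are the accessible peaks of dopaminergic neurons (DNs) whose centre lay in an exon of a protein-coding gene and more than 1 kb from every protein-coding transcript start. The genes and transcripts were those of the basic set of GENCODE mouse release 21 on mm10, and the X chromosome was left out. Of 55326 peaks in the list, 54570 were on the 19 autosomes, and 3161 of these were exonic by this rule (5.79%, 95% exact interval 5.60 to 5.99). By the place of the centre base, 1776 were coding (56.2%), 1321 were 3' untranslated (41.8%) and 61 were 5' untranslated (1.93%). The remaining 3 comprised 1 peak that was untranslated at both ends in different transcripts and 2 in exons of noncoding transcripts of protein-coding genes. A last exon of a transcript with 2 or more exons held 1798 of the exonic peaks (56.9%). The only exon of a single-exon transcript counts below as not last, unless it is last in another transcript.

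The study compared chromatin contacts, gene expression and accessibility between brain cell types and mouse embryonic stem cells. For DNs it used snATAC-seq, in which a transposase cuts open chromatin inside isolated nuclei and adds adaptors, and the fragments of each nucleus then receive its barcode. The midbrain ventral tegmental area was dissected from wild-type male C57Bl/6Nl mice in 2 libraries, 1 from an age of 7 weeks and 1 from an age of 9 weeks. DNs were picked afterwards as a cluster of nuclei, and both libraries were pooled into 1 list of positions. The list gives no height, count or score, so no value here has a spread between animals and no test between samples was possible. Intervals are 95% exact intervals and cover counting error only. The depth behind single peaks is not in the list, and a place without a peak is one where none was called.

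Most enhancers lie in introns or between genes, but transcription factors also bind within exons, and such elements have to share their bases with the code for protein. Exons are richer in G and C than introns, and GC content can affect how readily DNA is recovered in sequencing assays. CpG dinucleotides are rare in the mouse genome except at CpG islands, which mark most promoters and some enhancers. CTCF, a zinc finger protein that holds chromatin loops and domain borders, binds a long and well defined sequence.

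The sequences below are read from GRCm38, which has the chromosome sequences of mm10, and are coding on the strand of the gene. The first set gives the 30 bases at the centre of each coding peak in a gene that specifies or serves DNs, with CpG dinucleotides in capitals, because the median CpG content of coding peaks was higher than that of other coding exons.
Pitx3, exon 4, chr19:46136178-46136207, minus strand: ctCGgcCGcCGcagcCGcCGctgcagcCGc
En2, exon 1, chr5:28166829-28166858, plus strand: CGaaggaggCGgCGgCGgCGcaggCGgagc
Drd4, exon 3, chr7:141293975-141294004, plus strand: tCGcCGccaCGtggctgctgtcCGcCGCGg
Neurog2, exon 2, chr3:127634307-127634336, plus strand: gggagctgCGctCGgCGccagCGgggacag
Lmx1a, exon 2, chr1:167692008-167692037, plus strand: gCGagggctgtcagCGggtcatctCGgaca
Foxa1, exon 2, chr12:57542482-57542511, minus strand: ggtgtgcaCGgaaaggctagccagctagag
Foxa2, exon 2, chr2:148043710-148043739, minus strand: CGagcagcaacatcaccacagccaccacca

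The centres of the peaks in Pitx3, En2 and Drd4 held 6 CpG each in 30 bases, and those in Foxa1 and Foxa2 held 1 each. The second set gives the 4 matches to the CTCF consensus that lay nearest to the centre of a coding peak, each at most 3 bp from it, with the match in capitals.
Smarcd3, exon 2, chr5:24598751-24598780, minus strand: ccgaatgccCCACCAGGGGGCgcccatggg
Synpo2l, exon 4, chr14:20661153-20661182, minus strand: ttcatgcagCCACTAGGGGGCaggagttac
Yipf7, exon 4, chr5:69521088-69521117, minus strand: ccaatgaagCCAGCAGATGGCagcatcatg
1700020L24Rik, exon 2, chr11:83440492-83440521, plus strand: gtccagcagCCAGCAGGTGGCgctgctgcg

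The third set shows how a peak can lie over the end of a short exon, in a pair of the genes with the most exonic peaks. The last bases of the exon are in capitals and the first bases of the intron in lower case, and the exon end was 8 bp from the peak centre in Kif1a and 14 bp in Ltbp3.
Kif1a, exon 37, chr1:93026820-93026849, minus strand: CTTCGGAAATGACACTAGgtacaggcacca
Ltbp3, exon 25, chr19:5757455-5757484, plus strand: GCCCGCCACGTGGCACCGgtgagctacccc

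Peaks at genes that mark cell types are given next as a description of the list. The authors picked the DN cluster by accessibility at Th and looked at further markers such as Lmx1b, Foxa1, Foxa2 and Slc6a3, so peaks at these genes are no independent check of the label. All 10 DN markers, among them the genes for tyrosine hydroxylase (Th) and the dopamine transporter (Slc6a3), held at least 1 peak in the gene or within 2 kb before it, with a median of 6.5 and at most 31 peaks a gene. The same held for 4 of 5 markers of other neurons (median 1), 3 of 5 of oligodendrocytes (median 1), 2 of 4 of astrocytes (median 1) and 1 of 4 of microglia (median 0), with up to 9 peaks in a gene. Of all 20807 autosomal protein-coding genes 65.9% (65.2 to 66.5) held a peak by the same measure, with a median of 1 peak. The part of nuclei of other cell types in the exonic peaks was not tested.

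Exons held more peaks for their length than introns or the sequence between genes. Exon sequence over 1 kb from a start made up 60.1 Mb, or 2.51% of the autosomal sequence, and carried 52.6 peaks per Mb (50.8 to 54.5). Coding sequence carried 60.7 peaks per Mb (57.9 to 63.6), 3' untranslated sequence 43.9 (41.5 to 46.3) and 5' untranslated sequence 89.7 (68.6 to 115), the last from only 0.680 Mb. Introns carried 23.1 per Mb (22.7 to 23.4) from 20645 peaks, and sequence outside protein-coding genes 10.5 per Mb (10.3 to 10.6) from 14524 peaks. The density in coding sequence was thus 2.63 times (2.51 to 2.76) that in introns, and in 3' untranslated sequence 1.90 times (1.80 to 2.01). All of these lay far below the 318 peaks per Mb within 1 kb of a start, where 16240 peaks lay.

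**Figure D1:**
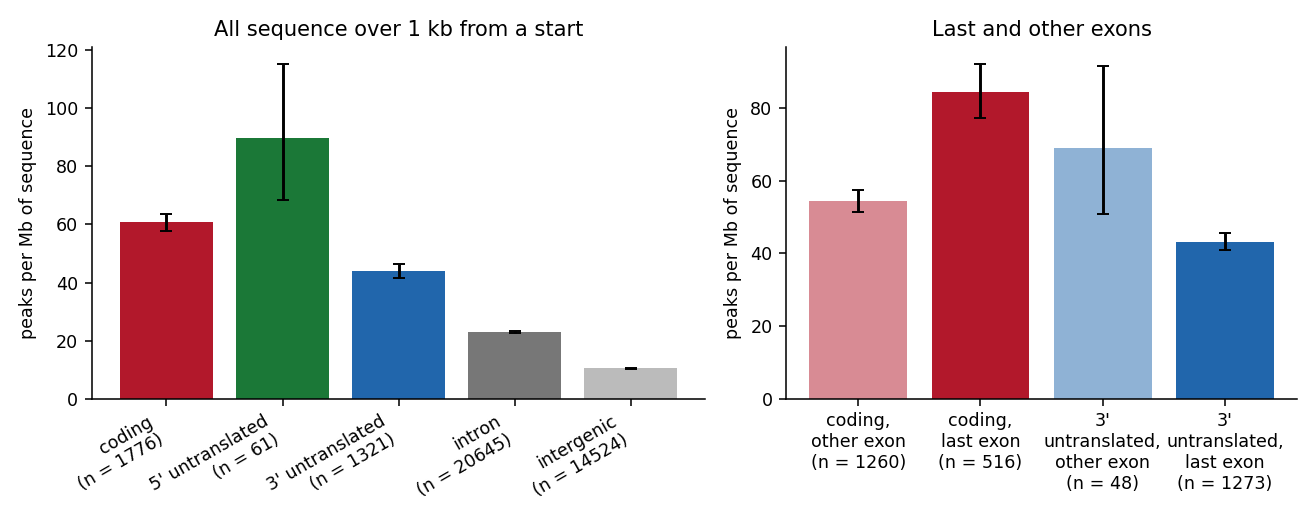
Peaks per Mb of sequence over 1 kb from a protein-coding transcript start, by the class of the peak's centre (left) and for last and other exons (right); bars are densities, n is the number of peaks and error bars are 95% exact intervals of counting error. Coding sequence stood at 60.7 and introns at 23.1 peaks per Mb, and coding sequence of last exons at 84.5 against 54.4 in other exons.

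The order of coding sequence and introns depended on their GC content. In coding, 3' untranslated, intronic and intergenic sequence, density rose steeply with the GC content of the 500 bp around a position. In coding sequence it went from 3.23 peaks per Mb under 40% GC to 628 at 65% GC and over, and in introns from 3.79 to 490. Sequence at 55% GC or over made up 24.8% of coding, 6.49% of 3' untranslated and 2.63% of intronic sequence. At 50 to 55% GC, coding sequence carried 51.9 peaks per Mb and introns 67.4, a ratio of 0.770 (0.687 to 0.860), and at 55 to 60% GC 107 and 136, a ratio of 0.786 (0.716 to 0.861). Between 60 and 65% GC the ratio was 0.978 (0.859 to 1.11), an interval that holds equality, and at 65% and over it was 1.28 (1.08 to 1.52).

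If coding sequence had carried peaks at the intronic density of each GC bin, it would have held 2007 rather than 1776, a ratio of 0.885 (0.844 to 0.927). When bins of distance from a start were matched too, the ratio was 0.803 (0.766 to 0.842). The 3' untranslated sequence differed from coding sequence in this respect, as its ratio to introns stayed above 1 when GC was matched, at 1.46 (1.38 to 1.54), and when GC and distance were matched, at 1.40 (1.33 to 1.48). At 50 to 55% GC it carried 108 peaks per Mb, 1.60 times (1.45 to 1.76) the intronic density. For 5' untranslated sequence the ratio matched on both was 1.27 (0.975 to 1.64), which holds equality. The preference of the transposase for certain sequences was not tested.

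**Figure D2:**
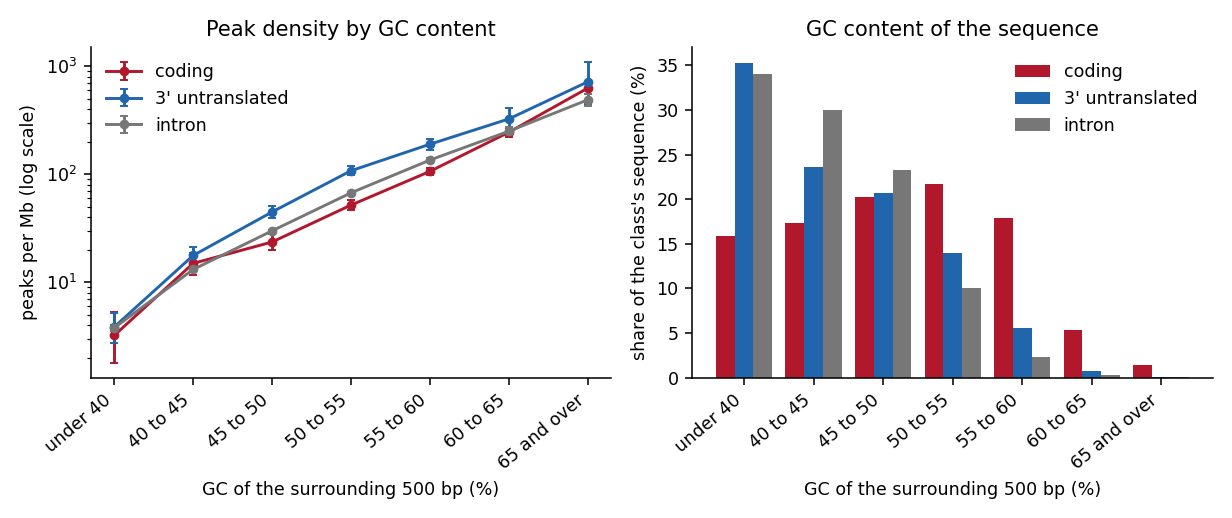
Peaks per Mb on a log scale against the GC content of the surrounding 500 bp (left, error bars are 95% exact intervals of counting error) and the share of each class's sequence in the same GC bins (right), for coding, 3' untranslated and intronic sequence over 1 kb from a start. The ratio to introns has an interval below 1 for coding sequence in the bins from 45 to 60% GC and above 1 for 3' untranslated sequence in those from 40 to 65% GC, while coding sequence has more of its length at high GC.

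Coding and 3' untranslated peaks also differed in how they spread from transcript starts. Coding density was 169 peaks per Mb at 1 to 2 kb, 102 at 2 to 5 kb and 69.6 at 5 to 10 kb, and fell to 27.6 beyond 100 kb. The 3' untranslated density was 61.1 at 1 to 2 kb, close to the 67.5 of introns there (ratio 0.905, 0.743 to 1.09), and 47.9 at 10 to 20 kb, 1.99 times (1.76 to 2.25) the intronic value. The median distance to a start was 6397 bp for coding, 10908 bp for 3' untranslated and 2094 bp for 5' untranslated peaks, against 23621 bp for intronic peaks. Of the 5' untranslated peaks 29 of 61 lay within 2 kb of a start, and of all exonic peaks 474 did (15.0%). At the other end, 1370 exonic peaks (43.3%) were over 10 kb and 80 (2.53%) over 100 kb from a start.

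**Figure D3:**
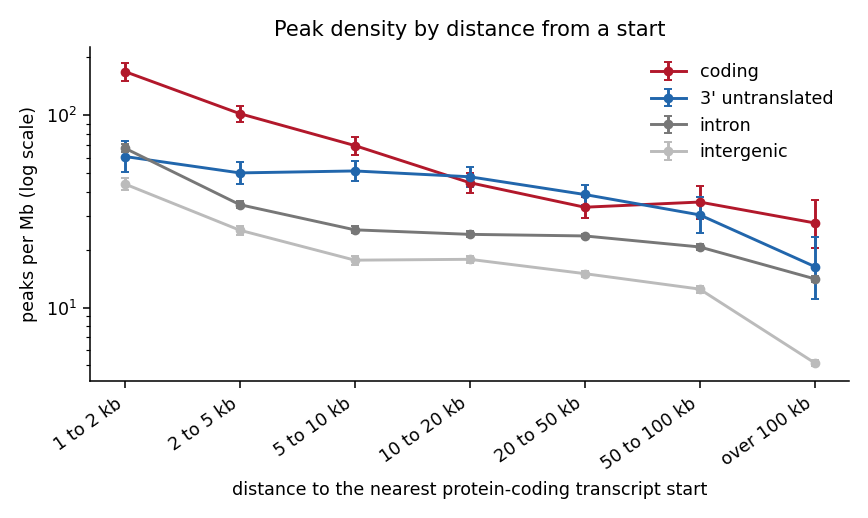
Peaks per Mb on a log scale against the distance to the nearest protein-coding transcript start, for coding, 3' untranslated, intronic and intergenic sequence; error bars are 95% exact intervals of counting error. Coding density falls from 169 at 1 to 2 kb to 27.6 beyond 100 kb, while the 3' untranslated density stays between 38.7 and 61.1 up to 50 kb.

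The 1 kb limit cut through a continuous range of distances. Within 100 bp on either side of it, 58 exonic peaks lay outside and 83 inside the limit, with a median GC of 58.1% and 60.6% and a median CpG observed over expected of 0.476 and 0.608. The nearest members, at 1002 bp, were in Rdh5 (a retinol dehydrogenase), Hist1h1c (a linker histone) and Fam83e, followed by Nrxn3 (a neurexin of synapses) and Mab21l1 at 1005 bp. The nearest excluded peaks were at 1000, 999 and 998 bp. The farthest members were in the last exon of Dpp10, which encodes a subunit of potassium channels, at 713452 bp, the last exon of Fam155a at 517336 bp, exon 7 of Ctnnd2 (delta-catenin) at 473823 bp, exon 6 of Egfem1 at 414734 bp and exon 8 of Cntn5 (a contactin) at 370242 bp.

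Some of these distances depend on which transcripts count as starts. In the full annotation, which also holds partial and noncoding transcripts, 707 exonic peaks (22.4%, 20.9 to 23.9) had a start within 1 kb, and the share was 31.2% of coding, 37.7% of 5' untranslated and 9.61% of 3' untranslated peaks. The peak in Ctnnd2 lay 342 bp from such a start, with 75.8% GC and a CpG observed over expected of 0.997, and the peak in Mab21l1 lay 25 bp from 1. The far peaks in Fam155a, Dpp10, Egfem1 and Cntn5 lay 9553, 35523, 53776 and 154417 bp from such a start. A start of a noncoding gene's transcript was within 1 kb of 155 exonic peaks (4.90%), and 55 peaks also lay in an exon of a noncoding gene, 47 of them on the other strand.

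Exonic peaks had a higher median GC and CpG content than exons without a peak. Coding peaks had a median GC of 57.8% (quartiles 53.8 and 62.0), against 47.4% in 165163 windows of 500 bp at the middle of coding exons without a peak. The 3' untranslated peaks had 52.4% against 44.2% in 22544 such windows, but 49.2% was the median of windows 2 kb away from these peaks, which lowers the difference from 8.2 to 3.2 percentage points. The 5' untranslated peaks had 57.4% against 44.8%. The median ratio of observed to expected CpG was 0.381 (quartiles 0.257 and 0.587) in coding, 0.236 in 3' untranslated and 0.578 in 5' untranslated peaks, and 0.260 (0.177 and 0.354), 0.202 and 0.228 in their exons without a peak, so that the distributions overlap. It was 0.230 in intronic peaks, near the value of 3' untranslated peaks. Within 1 kb of a start the median GC of peaks was 62.2% and the CpG ratio 0.756.

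A peak was called CpG island-like at a GC content of at least 50% and a CpG ratio of at least 0.6. This held for 409 of 1776 coding peaks (23.0%, 21.1 to 25.1), 28 of 61 in 5' untranslated sequence (45.9%, 33.1 to 59.2) and 54 of 1321 in 3' untranslated sequence (4.09%, 3.09 to 5.30). It held for 1.05% of coding exons without a peak, 2.88% of intronic peaks and 70.2% of peaks within 1 kb of a start. Over 5 kb from a start it still held for 16% of coding peaks (13.8 to 18.4). Of the island-like coding peaks 43.0% (38.2 to 48.0) had another peak centre within 1 kb, against 30.4% (28.0 to 32.9) of the other coding peaks. A start of the full annotation lay within 1 kb of 32.8% (28.2 to 37.5) and 30.8% (28.4 to 33.3), and these intervals overlap. A protein-coding start was over 10 kb away for 21.3% (17.4 to 25.6) of the island-like and 42.4% (39.7 to 45) of the other coding peaks. Of the island-like 3' untranslated peaks 24.1% (13.5 to 37.6) had a start of the full annotation within 1 kb, against 9.00% (7.48 to 10.7) of the others.

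Of 17 motifs searched on both strands, the CTCF consensus had the highest ratio between coding peaks and coding exons without a peak. It was found in 69 coding peaks (3.89%, 3.04 to 4.89), 92 of the 3' untranslated peaks (6.96%, 5.65 to 8.47) and 6 of the 5' untranslated peaks (9.84%, 3.7 to 20.2). In exons without a peak the shares were 0.294%, 0.306% and 0.207%. The coding peaks held it 13.2 times as often as coding exons without a peak, and 10.1 times when GC bins were matched, and for 3' untranslated peaks these values were 22.8 and 13.7. Intronic peaks held it in 5.63%, peaks outside genes in 9.28% and peaks within 1 kb of a start in 1.26%. A match is a description of the sequence and not evidence of binding.

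Most CTCF matches lay near the middle of the peaks. The sequences printed above, such as that from Smarcd3 (a subunit of a chromatin remodelling complex), were picked for being nearest to a centre and are examples only. In coding peaks 49 of 69 nearest matches lay within 50 bp of the centre (71%, 58.8 to 81.3), and in 3' untranslated peaks 81 of 92 (88.0%, 79.6 to 93.9). In coding exons without a peak 22.2% of the nearest matches lay that close to the middle of the window (18.6 to 26.2). For at least 42 matches in coding peaks, counted over part of the autosomes, the match and its flanks of 30 bases in all lay within 1 coding exon. There the consensus itself was read as codons.

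For other motifs the ratio between coding peaks and coding exons without a peak depended more on GC content. GCGCATGCG, bound by NRF1, was found in 1.13% (0.689 to 1.73) against 0.132%, a ratio of 8.53 that became 3.97 when GC bins were matched. GCGTGGGCG, bound by Egr1, was found in 0.732% (0.390 to 1.25) against 0.101%, and its ratio of 7.28 became 0.927 when matched. The GC box GGGCGG, bound by Sp1, was found in 31.6% of coding peaks (29.5 to 33.9) and 9.79% of coding exons without a peak, and with GC bins matched the ratio went from 3.23 to 1.11. The E-box CAGCTG, bound by basic helix-loop-helix factors, was found in 42.5% and 28.1%, with a ratio of 1.51 and 1.07 when matched. The homeodomain sequence TAATTA was found in 2.98% and 10.9%, and with GC matched the ratio went from 0.274 to 1.06. CATGGNAAC, of the kind bound by RFX factors, was found in 3.77% (2.94 to 4.77) and 2.16%, and here the ratio of 1.75 became 2.40 when GC was matched. Its nearest match lay within 50 bp of the centre in 44.8% of coding peaks with a match (32.6 to 57.4) and in 20.8% of windows in coding exons without a peak.

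Every peak in the list has a fixed width of 500 bp, longer than most exons that are not last, so how far accessibility reaches past an exon cannot be read from it. All 500 bp of a peak lay in exons for 27.4% of coding peaks (25.3 to 29.5) and for 79.1% of 3' untranslated peaks (76.8 to 81.3). Coding peaks had a median of 304 bp in exons, and their fixed width often covered intron too, as at the ends of exon 37 of Kif1a and exon 25 of Ltbp3 shown above. The exon was part of every basic transcript of its gene for 84.6% of coding peaks and 55.4% of 3' untranslated peaks. Genes with a single basic transcript always meet this, and no such share was taken for exons without a peak. In 80 cases (2.53%) the centre lay in exons of 2 or more protein-coding genes of different names, and these peaks count for each of those genes below.

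Among exons that were not last, density rose with length up to 500 bp. Among merged exons that were not last, 141 of 49878 exons of up to 100 bp held a peak (0.283%), which gave 38.9 peaks per Mb (32.7 to 45.8). Exons over 100 and up to 200 bp carried 44.3 per Mb (40.6 to 48.3), those up to 300 bp 60.7 (52.5 to 69.8) and those up to 500 bp 72.1 (57.3 to 89.5). The median GC of these exons rose as well, from 48.9% to 54.3%, and its part in the difference was not tested. The 35 exons over 5000 bp that were not last carried 19.7 per Mb (6.41 to 46.1). Exons with a peak had a median length of 176 bp, against 124 bp for all exons that were not last.

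Coding sequence in last exons was denser in peaks than in other exons. It held 516 of the 1776 coding peaks (29.1%, 27.0 to 31.2) and carried 84.5 per Mb (77.4 to 92.1) against 54.4 (51.5 to 57.5), a ratio of 1.55. GC content and exon length were not matched in this comparison, and their part in it was not tested. For 3' untranslated sequence the direction was the other way, with 43.3 per Mb in last exons (40.9 to 45.7) and 69.1 in other exons (51.0 to 91.7), the latter from 48 peaks. These other exons include the only exon of single-exon transcripts, as at the peaks in Hist1h1c, Ier2 and Jund, which were not taken apart. Last exons over 300 and up to 500 bp carried 64.2 peaks per Mb and those over 5000 bp 31.6 (27.4 to 36.3), with a median GC of 47.5% and 42.6%. The longer ones held several peaks more often, and 246 last exons held 2 or more peaks, at most 5.

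Profiles around exons showed where in these exons the peaks lay. Around the middle of 147389 internal coding exons of at most 300 bp, density was 48.4 per Mb in the 200 bp after the middle and 43.6 in the 200 bp before it. Beyond 400 bp it was 33.3 to 36.3 before the middle and 39.7 to 44.3 after it, so that the rise over the exon was small against the sequence that followed. Around the start of 17335 last exons, density was 57.8 per Mb in the 200 bp before the exon, 72.5 in its first 200 bp and 79.6 in the next 200 bp (70.2 to 89.8). At the end of the same exons the last 200 bp carried 44.6 per Mb (37.7 to 52.3), and the 200 bp after the end 50.7 (43.3 to 58.9), with intervals that overlap. Both lay below the 72.0 (63.2 to 81.7) of the 200 bp before them and the 71.7 (62.9 to 81.4) at 200 to 400 bp after the end. Neighbouring exons share flanks, so that 1 peak can count around several of them.

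**Figure D4:**
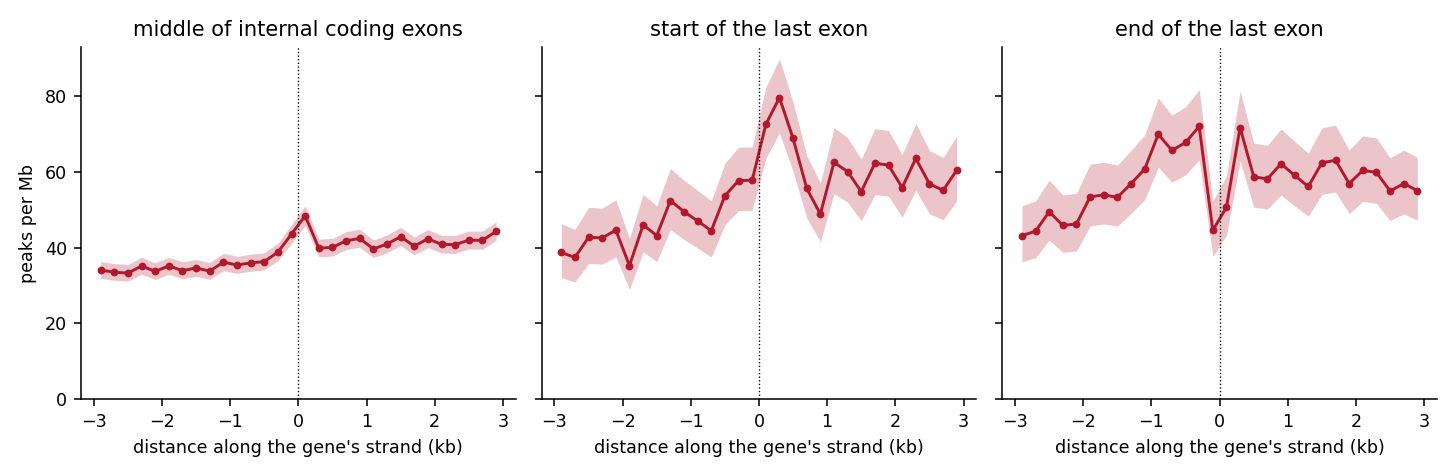
Peak centres per Mb in bins of 200 bp, against distance in the direction of transcription from the middle of internal coding exons of at most 300 bp, from the start of last exons and from the end of last exons, in sequence over 1 kb from a protein-coding start; shading is the 95% exact interval of counting error. Density reaches 79.6 just inside the last exon and falls to 44.6 and 50.7 in the 200 bp on either side of its end.

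Exonic peaks lay late in genes, as did exon sequence. Of 3161 peaks 64.1% (62.4 to 65.8) had their centre in the last of 4 equal parts of the gene, and 90.1% of 3' untranslated and 46.7% of coding peaks did. Per Mb of exon sequence open to the rule, this last part carried 53.7 peaks (51.5 to 56.1) and the first part 65.6 (57.5 to 74.5), with 53.8 (48.5 to 59.6) and 50.5 (46.4 to 54.8) in the parts between. Of the 61 peaks in 5' untranslated sequence 5 lay in the last part (8.20%, 2.72 to 18.1). By chromosome, exonic density ran from 30.1 per Mb on chromosome 13 to 79.0 on chromosome 11, with a median of 49.9.

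Exonic peaks stood closer to other peaks than intronic ones. Another peak centre lay within 1 kb of 1087 exonic peaks (34.4%, 32.7 to 36.1), against 20.6% (20.1 to 21.2) of intronic and 16.5% (15.9 to 17.1) of intergenic peaks. The share was 33.3% for coding and 35.6% for 3' untranslated peaks, with intervals that overlap. The median distance to the next peak centre was 1687 bp for exonic and 4100 bp for intronic peaks.

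Of 20046 autosomal protein-coding genes with exon sequence open to the rule, 2437 held at least 1 exonic peak (12.2%). The count was 1 peak in 1841 genes, 2 in 420, 3 in 126, 4 in 36, 5 in 8, 6 in 5 and 7 in 1. Genes with an exonic peak had more exon sequence open to the rule, with a median of 3472 bp against 2287 bp, and the share of genes with an exonic peak rose from 4.27% where this sequence was at most 1 kb to 20.3% where it was over 5 kb. They also held other peaks more often, since 79.7% (78.1 to 81.3) had a peak within 1 kb of one of their own starts, against 55.4% (54.7 to 56.2) of the other genes. Among genes with 3 to 5 kb of such sequence these shares were 81.6% and 68.3%. Of the genes with an exonic peak 282 (11.6%, 10.3 to 12.9) held neither a promoter peak nor an intronic peak, against 38.0% (37.3 to 38.7) of the other genes.

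The gene with the most exonic peaks was Apc2, a neuronal relative of the tumour suppressor APC that binds microtubules. It held 7, all coding and 5 of them in its last exon of 7231 bp. Their centres lay 4570 to 9318 bp from a start, and their GC content was 57.2 to 66.2%. Sptbn4, a spectrin of the axon initial segment, held 5 coding and 1 3' untranslated peak, spread over exons 14 to 36 of 36. Kif1a, a kinesin that carries synaptic vesicle precursors, held 4 coding and 2 3' untranslated peaks. The coding ones were in exons of 24 to 115 bp, the shortest of which is the exon 37 shown above, and their GC content was 47.6 to 55.8%.

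Nfasc, the adhesion molecule neurofascin of axon initial segments and nodes, had a different pattern, with 5 peaks in its 5962 bp last exon and 1 in a 5' untranslated exon 64480 bp from the nearest start. The 5 in the last exon had a GC content of 42.0 to 53.4%, lower than the peaks of Apc2. Pkd1, which encodes polycystin-1, held 3 peaks in its exon 15 of 3626 bp and 6 in all, 1 of which lay in an exon of its neighbour Tsc2 too. Ocel1 also held 6, of which 1 lay in coding sequence of Nr2f6 as well. Of the 8 genes with 5, the naming rule gave Ltbp3, a latent transforming growth factor beta binding protein, Crocc, the ciliary rootlet protein, 2700081O15Rik and Rtl1, beside Cacna1a and Shank1 described below. Rtl1, an imprinted gene derived from a retrotransposon, held 4 coding and 1 3' untranslated peak in its 6296 bp last exon and no peak at its own starts, and 4 of the 5 lay 25 to 607 bp from a start in the full annotation.

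In 5' untranslated exons Pcdh17, a protocadherin, held 2 peaks in a first exon of 5091 bp, which held 2 coding peaks as well. Crlf2, a cytokine receptor subunit, and Cplx1, the complexin that clamps vesicle fusion, held 1 each. In 3' untranslated exons Ocel1 held 4 peaks, after the 5 of Nfasc. Cacna1a, the pore of P/Q-type calcium channels, held 5 coding peaks, as many as Sptbn4. The one in its exon 19 lay 103348 bp from a start with 76.8% GC, and that in its last exon had a CpG ratio of 1.33.

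Of 19 transcription factors that specify or maintain midbrain DNs, 7 held an exonic peak (36.8%, 16.3 to 61.6, against 12.2% of all genes). Of these 7, Lmx1b, Foxa1 and Foxa2 were among the further markers that the authors looked at in the cluster picked by accessibility at Th. Peaks at them are thus no independent check of the label. The 19 genes carried 8 exonic peaks, or 131 per Mb of open exon sequence, against 53.9 over all genes. Lmx1b, a LIM homeodomain factor needed for DNs to form, held 2, both 3' untranslated in its last exon of 3829 bp at 78958 and 77041 bp from a start. They had 58.8 and 56.8% GC but a CpG ratio of only 0.162 and 0.178. Its relative Lmx1a held 1 coding peak in exon 2 (chr1:167691773-167692272), 2466 bp from a start, with 56.4% GC. The other 5 were also coding and had 61.6 to 70.2% GC.

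Pitx3, a homeodomain factor that DNs need to survive, held its peak in the last exon (chr19:46135943-46136442), 4296 bp from a start. The whole 500 bp were in the exon, the GC content was 70.2% and the CpG ratio 0.837. Foxa1 and Foxa2, forkhead factors that open chromatin in DN precursors, both held 1 in the last of their 2 exons, at 3624 and 2223 bp from a start, with 67.4 and 61.6% GC. Neurog2, which drives neuron formation, held 1 in its last exon at 1187 bp, and En2, an engrailed factor of the midbrain, 1 in its first exon at 1150 bp with a CpG ratio of 0.989. All 7 genes also had at least 1 peak within 1 kb of one of their starts. Of 14 genes that make, carry, degrade or sense dopamine, 1 held an exonic peak (7.14%, 0.181 to 33.9). This was Drd4, a dopamine receptor, in exon 3 at 1984 bp from a start (67.6% GC, CpG ratio 0.844), and it held no peak within 1 kb of its starts and none in an intron. It lay 859 bp from a start of the full annotation.

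**Figure D5:**
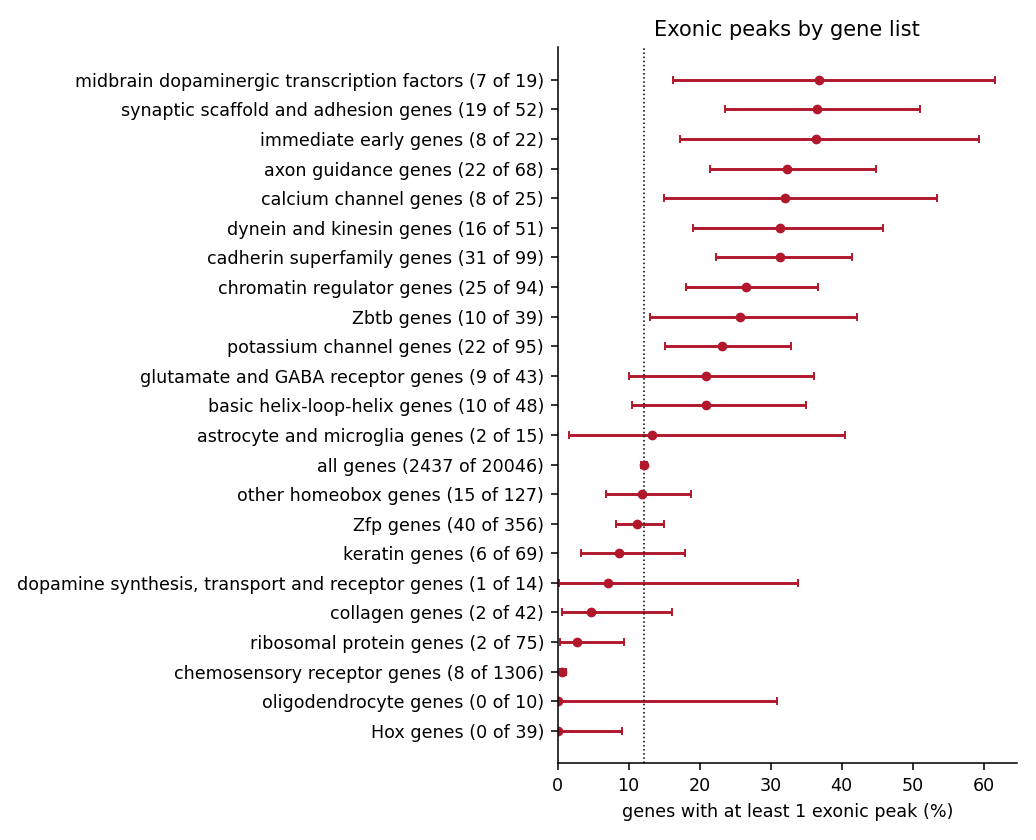
Share of genes with at least 1 exonic peak, for 22 gene lists and for all 20046 genes tested, with the number of genes in brackets; points are percentages, bars 95% exact binomial intervals and the dotted line the 12.2% of all genes. Genes that share exons count separately, which raises the cadherin list. The DN transcription factors stand at 36.8% and the chemosensory receptors at 0.613%.

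In lists of synaptic, axonal and channel genes, 20.9 to 36.5% of the genes held an exonic peak, against 12.2% of all genes. Of 52 genes of synaptic scaffolds and adhesion 19 did (36.5%, 23.6 to 51.0), led by the scaffold Shank1 with 5, the neurexin Nrxn2 with 4 and the scaffold Dlgap3 with 3. Of the 5 in Shank1, 1 was coding in the overlapping gene 1700008O03Rik. Of 68 axon guidance genes 22 did (32.4%, 21.5 to 44.8), with 3 peaks each in Sema6b, a semaphorin, and Unc5a, a netrin receptor, and 2 in the netrin Ntn3. Of 99 cadherin genes 31 did (31.3%, 22.4 to 41.4), but clustered protocadherins share their last exons and these genes are not independent. The list held 27 distinct peaks, of which 2 counted for up to 21 genes each, and 13 of the 99 genes held a peak that lay in no other gene of the list.

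Of 25 calcium channel genes 8 held an exonic peak (32%, 14.9 to 53.5), and their density was 141 per Mb of exon. After Cacna1a came Cacna2d2, an auxiliary subunit, with 4 and Cacna1b, the N-type pore, with 3. Of 95 potassium channel genes 22 did (23.2%, 15.1 to 32.9), led by the sodium-activated channel Kcnt1 with 4, the inward rectifier Kcnj9 with 3 and the subunit Kcnab3 with 2. Of 43 receptors of glutamate and GABA 9 did (20.9%, 10.0 to 36.0), with 4 in the kainate receptor Grik5, 2 in the NMDA receptor Grin2d and 1 in Gabrp. The interval of that share holds 12.2%, and the density of 54.4 per Mb was near the 53.9 of all genes. Of 51 dynein and kinesin genes 16 did (31.4%, 19.1 to 45.9), where Dnah1, an axonemal dynein, held 3 and Kif24 held 2 after Kif1a, and the density was 69.1 per Mb. Per Mb, synaptic scaffold genes carried 113, axon guidance genes 83.0 and potassium channel genes 92.2, and cadherin genes carried 64.8 with shared peaks and shared exon sequence counted once. These lists had long exon sequence, with medians of 3.19 to 6.37 kb against 2.41 kb over all genes.

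Lists of regulators varied. Of 94 chromatin regulators 25 held an exonic peak (26.6%, 18 to 36.7), but per Mb of their long exons they carried 62.8, close to the 53.9 of all genes; Chd5, a remodeller, and Kmt2d, a histone methyltransferase, held 3 each and Smarcd3 held 2. Of 48 basic helix-loop-helix genes 10 did (20.8%, 10.5 to 35), with 126 per Mb and 2 each in Hes3, Nhlh2 and Bhlhe41. Of 39 Zbtb genes 10 did (25.6%, 13 to 42.1), with 3 in Zbtb7a and 1 each in Zbtb22 and Zbtb32, and their density was 57.3 per Mb, near that of all genes. Of 356 Zfp genes 40 did (11.2%, 8.15 to 15.0), near the 12.2% of all genes, although 80.9% of them had a promoter peak, against 58.4% of all genes, and Zfp703, Zfp651 and Zfp592 held 3 each. Their density of 40.01 per Mb was below the 53.9 of all genes. The 3 in Zfp703 were all coding, in its last exon.

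Of 22 immediate early genes, which neurons induce on activity, 8 held an exonic peak (36.4%, 17.2 to 59.3) and all 22 had a promoter peak, against 58.4% of all genes. Their 175 exonic peaks per Mb were the highest value of the 22 lists, but it rests on 9 peaks in 0.0514 Mb. Maff held 2 while Ier2 and Jund held 1 each. The peaks in Ier2 and Jund, both 3' untranslated, lay 1129 and 1148 bp from a start, just over the limit. In the full annotation the peak in Jund lay 17 bp from a start. Of 127 homeobox genes outside the Hox clusters 15 did (11.8%, 6.76 to 18.7), including Lmx1b, Nkx6-3 and Zfhx2 with 2 each, at 45.5 per Mb, against 12.2% and 53.9 per Mb over all genes. None of 39 Hox genes did, an interval of up to 9.03%, and 1 of them had a promoter peak (2.56%, against 58.4% of all genes).

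The remaining lists hold receptors of sensory cells, structural and ribosomal proteins and genes of glia, and their shares ran from 0 to 13.3%, against 12.2% of all genes. The intervals of the collagen, keratin, oligodendrocyte and astrocyte and microglia lists hold that share. Of 1306 receptors for odours, pheromones and tastes 8 did (0.613%, 0.265 to 1.2), among them Tas1r3, a sweet and umami taste receptor, with 2 and Olfr30 and Olfr90 with 1 each. They carried 2.68 exonic peaks per Mb of open exon sequence. Of 42 collagen genes 2 did (4.76%, 0.582 to 16.2), Col23a1 and Col17a1 with 1 each, although collagens have much exon sequence, with a median of 5.67 kb, and they carried 8.03 per Mb. Of 75 ribosomal protein genes 2 did (2.67%, 0.325 to 9.30), among them Rpl7l1 with 1, while 96.0% of the list had a promoter peak, against 58.4% of all genes. Their median exon sequence open to the rule was 0.582 kb, and their density of 50.5 per Mb was near the 53.9 of all genes. Of 69 keratin genes 6 did (8.70%, 3.26 to 18), with 1 each in Krt88, Krt86 and Krt76, and their density of 71.2 per Mb rests on these 6 peaks. None of 10 oligodendrocyte genes did, an interval of up to 30.8%. Of 15 genes of astrocytes and microglia 2 did (13.3%, 1.66 to 40.5), Sox9 and Gfap with 1 each. The peak in Sox9 was coding, in its last exon, with 67% GC, and the nearest other peak was 257994 bp away.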

How the data were processed

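The authors mapped the reads of both DN libraries to mm10 with Cell Ranger, removed doublets and poor nuclei, and called reproducible peaks on pseudobulk replicates with ArchR. The deposited list gives chromosome, start and end (other values: positions of 500 bp each) with no score, and whether a filter on the share of nuclei had been applied to it is not given in the sources used here. The 1 library of mouse embryonic stem cells was not used here. No columns of per-sample values were left out (0).

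Starts were read as counted from 0, and 1-based positions are printed. If they were counted from 1, all positions shift by 1 bp. Each centre was assigned by the basic set of GENCODE release 21, in the order coding, untranslated, noncoding. The GENCODE coding part leaves out the stop codon, which counts here as 3' untranslated. Intron and intergenic mean inside and outside protein-coding genes, and density is centres per Mb of known sequence of a class over 1 kb from a start. GC and CpG were computed over 500 bp. Ratios of densities have an interval that holds the sum of both counts fixed, and GC-matched ratios divide the count by the sum over bins of sequence times intronic density. Windows without a peak stand at the middle of exon stretches with no peak within 500 bp.

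Motif matches are to short consensus sequences and not to motif models. Genes are named by a rule: the 10 with the most exonic peaks, 3 for each class and list, all those of both DN lists, and the 5 nearest and 5 farthest peaks. The members, lists and rules were chosen with earlier results of these data known, and support nothing on their own. Some genes that this rule names are not reported here. Peaks of 1 gene are not independent, and merging keeps peaks from overlapping. The procedures were tested on simulated data. Figures were drawn with matplotlib 3.10.9, intervals came from scipy 1.17.1, and tables were handled with pandas 2.3.3 and numpy 2.4.6 in Python 3.11.15.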

Additional observations from a re-analysis of the deposited data

How the results depend on the processing

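No paired analysis was possible because both libraries were pooled into 1 list, and for the same reason no library could be left out. In 28 results, 75 comparisons with an alternative were made: 39 moved less than the counting interval (or, for a count, less than 1.5 times), 31 moved more and 5 turned direction. The number of exonic peaks (3161) was 1994 over 5 kb from a start, 5853 when 1 bp in an exon was enough and 2074 without peaks that had another centre within 1 kb. Under the other alternatives it stayed between 2454, with every start of the full annotation, and 3741, over 500 bp from a start. Reading starts as counted from 1 gave 3164.

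The coding share (56.2%) was 54.2% with the untranslated class first, 59.3% with 1 transcript a gene, 53.9% over 2 kb from a start and 49.8% with every start of the full annotation. The ratio of coding to intronic density (2.63) was 2.44 over 2 kb, 2.12 over 5 kb, 2.41 with every start and 2.20 within distance bins. It turned to 0.885 within GC bins, and, in alternatives added after the data were seen, to 0.803 within GC and distance bins and 0.830 within GC bins over 5 kb. For 3' untranslated sequence (1.90) it was 1.46 within GC bins, 1.59 within distance bins, 1.40 within both and 1.52 within GC bins over 5 kb.

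In the transcript with the longest coding sequence, 26.6% of coding peaks (29.1%) were in the last exon. Against windows 2 kb away the GC difference was 8.8 points for coding and 3.2 for 3' untranslated peaks (8.2), and the CpG difference of coding peaks (0.120) was 0.172, or 0.108 over 2 kb. The CTCF ratio within GC bins was 10.1 for coding (13.2) and 13.7 for 3' untranslated peaks (22.8), and in coding peaks the ratio of TAATTA turned from 0.274 to 1.06 and that of GCGTGGGCG from 7.28 to 0.927. Genes with an exonic peak (2437) were 596 at 2 or more peaks, and the share with another peak (34.4%) was 54.4% within 2 kb. Without heights or counts per peak, weak and strong peaks weigh the same, and depth limits which were called.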
